A study of Mus musculus with 6 samples.

Results

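The genes *Ubb* and *Rps27a*, which encode ubiquitin, and *Uba1* and *Uba6*, which encode the enzymes that activate it, were followed in RNA-seq of mouse embryonic stem cells (ESCs). The 4 genes were chosen by symbol through the Ensembl identifiers of the count table. They are 4 of its 37620 genes, and all 4 passed the filter on low counts. The libraries were made from polyA RNA of E14 ESCs, which the paper describes as a female line of mouse strain 129/Ola. There were 3 libraries of wild-type cells and 3 of *Ube2d3*-S138A cells. In the S138A cells a serine near the end of the ubiquitin-conjugating enzyme UBE2D3 is replaced with alanine on both alleles. Both groups were grown in 15% serum, and libraries were prepared from 500 ng of RNA each. The mutation was made with CRISPR/Cas9 and mutant cells were picked as single clones. Which clone gave the libraries is not stated in the sources used here, and a revertant line was not analysed here. An effect of the mutation and a property of a clone therefore cannot be told apart.

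Ubiquitin is a small protein that is joined to other proteins to mark them for degradation or to change what they bind. An E1 enzyme uses ATP to load ubiquitin onto a cysteine in its active site and hands it to an E2 enzyme such as UBE2D3, which works with an E3 ligase to attach it to a substrate. Cells make no free ubiquitin monomer directly. *Ubb* encodes a chain of ubiquitin units joined head to tail, while *Rps27a* encodes 1 unit fused to a ribosomal protein, and deubiquitinating enzymes cut the units free. UBA1 is the E1 for most E2 enzymes, and UBA6 is a second ubiquitin E1 that also activates the ubiquitin-like protein FAT10. The E1 step and the supply of ubiquitin come before the step that UBE2D3 carries out.

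In the GENCODE M21 annotation of mouse build GRCm38, *Ubb* (ENSMUSG00000019505) lies at chr11:62551171-62553213 on the plus strand and *Rps27a* (ENSMUSG00000020460) at chr11:29545846-29548109 on the minus strand. The *Ubb* protein of 305 residues holds 4 ubiquitin units of 76 residues, all in exon 2 of 2. The *Rps27a* protein of 156 residues holds 1 unit. Residues of these 5 units were identical, but their bases were not. Units 2, 3 and 4 of *Ubb* differed from unit 1 at 5, 2 and 10 of 228 bases, and the unit of *Rps27a* differed from it at 44 bases (80.7% identical). The first 60 bases of each unit are shown to let the near copies within *Ubb* be set beside the unit of *Rps27a*, and capitals mark bases that differ from unit 1 of *Ubb*. The run of *Rps27a* joins exons 1 and 2 of 5, so its interval on the genome also spans an intron.
*Ubb* unit 1, chr11:62552146-62552205, plus strand: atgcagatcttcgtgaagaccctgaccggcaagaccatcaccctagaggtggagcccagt
*Ubb* unit 2, chr11:62552374-62552433, plus strand: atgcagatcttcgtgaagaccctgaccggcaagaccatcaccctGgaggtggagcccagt
*Ubb* unit 3, chr11:62552602-62552661, plus strand: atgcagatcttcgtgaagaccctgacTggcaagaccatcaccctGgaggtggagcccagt
*Ubb* unit 4, chr11:62552830-62552889, plus strand: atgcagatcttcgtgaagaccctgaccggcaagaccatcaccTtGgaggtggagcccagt
*Rps27a* unit, chr11:29547249-29547728, minus strand: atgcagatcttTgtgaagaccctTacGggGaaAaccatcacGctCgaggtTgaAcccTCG
Within *Ubb* at most 2 of these 60 bases differed, against 12 in *Rps27a*. The ubiquitin units of *Ubb* are thus near copies of each other, and that of *Rps27a* is not.

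Both E1 genes have many exons. *Uba1* (ENSMUSG00000001924) lies at chrX:20658326-20683179 on the plus strand, and *Uba6* (ENSMUSG00000035898) at chr5:86109287-86172803 on the minus strand. Mice also carry *Uba1y* (ENSMUSG00000069053), a Y-linked copy of *Uba1*. UBA1 and UBA6, of 1058 and 1053 residues, were identical at 43.8% of 1028 aligned residues, and the products of *Uba1* and *Uba1y* at 83.0% of 1057. The 51 bases around the catalytic cysteine, the residue that carries activated ubiquitin, are printed here with the cysteine codon in capitals. The cysteine was found as the only match to the E1 active-site motif in each protein, at residue 632 of UBA1, 631 of the *Uba1y* product and 625 of UBA6.
*Uba1* exon 16 of 26, chrX:20676007-20676057, plus strand: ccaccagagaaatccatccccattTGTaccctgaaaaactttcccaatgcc
*Uba1y* exon 16 of 26, chrY:829269-829319, plus strand: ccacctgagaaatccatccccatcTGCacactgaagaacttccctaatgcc
*Uba6* exon 21 of 33, chr5:86132651-86132701, minus strand: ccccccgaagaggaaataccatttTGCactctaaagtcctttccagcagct
All 3 genes keep the cysteine, while the bases around it differ between them. Over the whole coding sequence *Uba1* and *Uba6* shared 57.9% of 3028 aligned bases, and *Uba1* and *Uba1y* shared 80.5% of 3171.

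Libraries held 33227593 to 37169770 counts, and 16023 genes were tested. On the first principal component, with 57.2% of the variance, the libraries wild-type 3 and S138A C were set apart from those remaining, and the second, with 25.6%, separated the genotypes. Columns of S138A libraries are not tied to replicate numbers by the labels, so these libraries are called A, B and C. Whether the 3 libraries of a genotype came from separate cultures is not stated, and the p-values measure only the spread between libraries, which may be technical. Between wild-type 1 and 2 the median squared difference in counts was 2.2 times that of sampling noise, and between S138A A and B 3.05 times. Pairs with wild-type 3 or S138A C were at 22.5 to 38.1 times. Summed levels of 10 pluripotency markers were 7306 to 8027 CPM (counts scaled to a common library size) in wild-type and 7553 to 8104 in S138A libraries. All 10 markers passed the filter on low counts. Markers of fibroblasts and feeder cells (7 of 8 tested) summed to 68.4 to 112 CPM in wild-type and 110 to 149 in S138A libraries, which overlapped. Primitive endoderm markers (8 of 8 tested) summed to 91.1 to 101 CPM in wild-type and 76.1 to 86.4 in S138A libraries, and these groups did not overlap. Of all genes tested singly, 10.9% also had every S138A library below every wild-type library. Trophoblast markers (5 of 6 tested) ran from 58.2 to 87.0 against 69.9 to 76.8 CPM, and neural markers (3 tested) from 104 to 198 against 87.3 to 217 CPM. The part of these cell types in the results on the 4 genes was not tested. Fewer cells of a type and less RNA per cell cannot be told apart in such bulk libraries.

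Per kilobase of gene, the ubiquitin genes were expressed far above the E1 genes, and *Uba1* far above *Uba6*. These levels are CPM scaled by TMM (trimmed mean of M values) and divided by the length of all annotated exons of a gene. In wild-type ESCs they were 831 ± 64.6 for *Ubb*, 682 ± 35.2 for *Rps27a*, 136 ± 14.2 for *Uba1* and 8.68 ± 0.83 for *Uba6* (SD, n = 3 libraries). The order of the first pair depended on the length used. With the shortest full coding transcript as length, *Rps27a* came first at 2112 ± 109 and *Ubb* second at 928 ± 72.2 (SD, n = 3), because the exons annotated for *Rps27a* cover 1972 bases in all and this transcript only 637. The positions of *Uba1* and *Uba6* were the same under all 3 lengths tried, and their ranges over the 6 libraries did not meet each other or those of the ubiquitin genes.

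**Figure D1:**
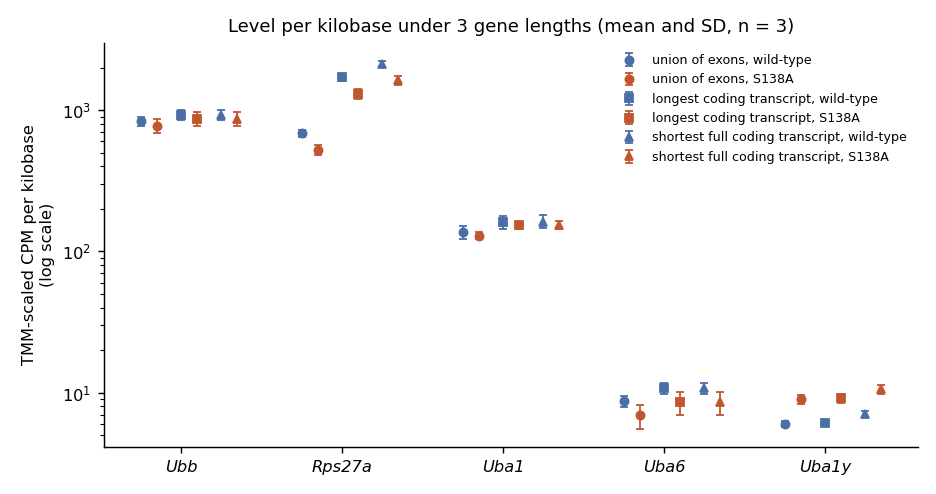
TMM-scaled CPM per kilobase (log axis) of *Ubb*, *Rps27a*, *Uba1*, *Uba6* and *Uba1y* in wild-type (blue) and S138A (orange) ESCs. Each marker is the mean of 3 libraries, bars are the SD, and the marker shape gives the gene length used. *Ubb* is above *Rps27a* with all exons as length and below it with either transcript length, while *Uba1* stays between them and *Uba6*.

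Between the genotypes, *Rps27a* was lower in S138A ESCs by 23.2% in the mean, *Uba6* was lower by 20.6%, and *Ubb* and *Uba1* differed by less than the spread between libraries. Tested with edgeR's quasi-likelihood test on all 16023 genes, none of the 4 passed an adjusted p of 0.05, and neither did any other gene (0 genes, 0%). At an unadjusted p under 0.05 the test had 2270 genes, *Rps27a* among them. Other tools and models gave more or fewer calls. The counts were 0 genes for limma-voom and 797 of 14775 genes (5.39%) for DESeq2, of which 2.55% of genes tested were lower in S138A. With the final digit of the column name as a replicate block, edgeR called 3180 genes (19.8%), 10.7% higher and 9.13% lower in S138A. It called 4418 genes (27.6%) with a term that sets the libraries wild-type 3 and S138A C apart, and 4756 of 16055 genes (29.6%) in the other 4 libraries alone. In the block *Rps27a* and *Uba6* passed, both lower, and in DESeq2 only *Rps27a* of the 4 passed.

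**Figure D2:**
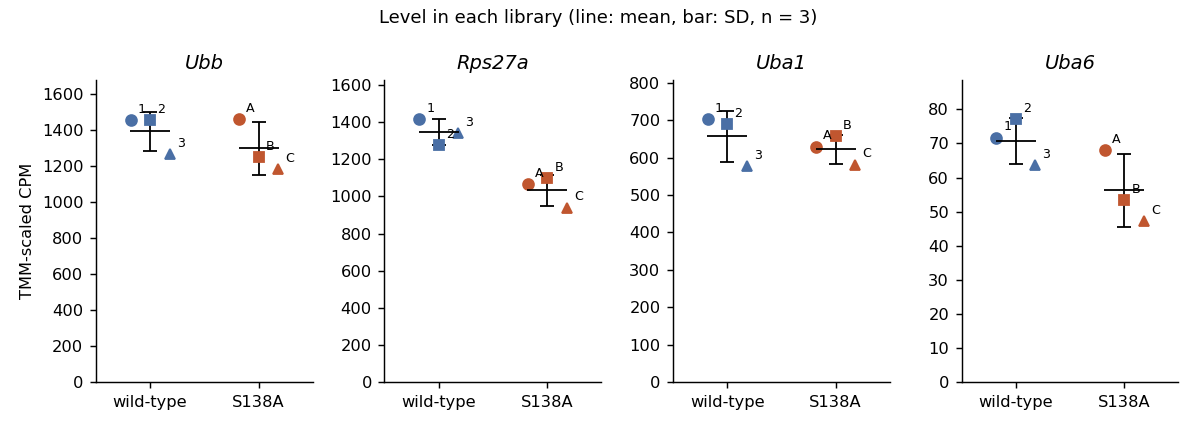
TMM-scaled CPM of *Ubb*, *Rps27a*, *Uba1* and *Uba6* in each library. Points are libraries with their number or letter, the horizontal line is the mean and bars are the SD of 3 libraries. All 3 S138A libraries of *Rps27a* sit below all 3 wild-type libraries, and the groups overlap for the other 3 genes.

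*Rps27a* encodes ubiquitin fused to eS31, a protein of the small ribosomal subunit. Its level in the wild-type libraries 1, 2 and 3 was 1417, 1278 and 1342 CPM, and in S138A libraries A, B and C it was 1066, 1097 and 939 CPM. The lowest wild-type library was above the highest S138A library, so the groups did not overlap. Among all genes tested, 10.9% had all S138A libraries below all wild-type libraries and 11.3% had them above. The log2 fold change was -0.38 (95% confidence interval -0.62 to -0.14, adjusted p = 0.212 from edgeR). With the replicate block it was -0.38 with an adjusted p of 0.0163 from edgeR, and with DESeq2 -0.38 with an adjusted p of 0.0192. By an exact permutation of the 6 libraries the two-sided p was 0.1, which is as small as 3 libraries against 3 can give. Libraries wild-type 3 and S138A C alone differed by -0.51 on the log2 scale, and the other 4 libraries by -0.32 (adjusted p = 0.00798 from edgeR on those 4). Within each genotype those 4 libraries were close to each other, so that p rests on a small spread.

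The fall of *Rps27a* in the block and in DESeq2 was compared with the other proteins of the small ribosomal subunit. Of 31 such genes tested, 0 had a lower log2 fold change than *Rps27a*. The highest value was 0.25 for *Rps29*, with a median over the 31 of -0.0095 beside 0.017 over all genes tested. In the block 1 of the 31 passed, *Rps29*, which was higher in S138A. For each 100 counts of those 31 genes together, *Rps27a* had 5.32, 4.92 and 5.48 counts in wild-type libraries and 4.22, 4.13 and 3.86 in S138A libraries. This ratio lies within each library and does not depend on how libraries were scaled, and its groups did not overlap.

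*Ubb*, a polyubiquitin gene known for its rise under heat and proteotoxic stress, had 1453, 1455 and 1267 CPM in the wild-type libraries. In S138A libraries A, B and C it had 1460, 1251 and 1181 CPM. S138A A was the highest of all 6 libraries and wild-type 3 was between S138A A and B, so the groups overlapped. The log2 fold change was -0.10 (95% confidence interval -0.38 to 0.18, adjusted p = 0.744 from edgeR), and the adjusted p in the block was 0.302. Permuting the libraries exactly gave p = 0.4 (two-sided). The ratio of *Ubb* to *Rps27a*, per kilobase of exon, was 1.21, 1.34 and 1.11 in the wild-type libraries, against 1.61, 1.34 and 1.48 in S138A A, B and C. Wild-type 2 and S138A B, at 1.341 and 1.343, almost met, and all 3 S138A values were above the wild-type values. Wild-type ESCs had a mean ratio of 1.22 ± 0.115 and S138A ESCs one of 1.48 ± 0.135 (SD, n = 3 each), and an exact permutation of the libraries gave p = 0.1 (two-sided), again the lower limit.

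*Uba6* had 71.7, 77.1 and 63.7 CPM in wild-type libraries and 68.2, 53.3 and 47.2 CPM in S138A libraries A, B and C. Libraries B and C were below every wild-type library, and A lay between wild-type 3 and wild-type 1. The log2 fold change was -0.33 (95% confidence interval -0.71 to 0.04, adjusted p = 0.402 from edgeR), with an exact permutation p of 0.2 (two-sided). In the block it was -0.35 (SE 0.0986) with an adjusted p of 0.0468 from edgeR, close to the threshold. DESeq2 gave an adjusted p of 0.355, and the 4 libraries without wild-type 3 and S138A C an adjusted p of 0.0743 from edgeR. Without S138A A the log2 fold change was -0.50, and without S138A C it was -0.22.

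*Uba1* had 703, 690 and 578 CPM in the wild-type libraries and 630, 657 and 581 CPM in S138A A, B and C. Wild-type 3 and S138A C, the libraries that stood apart, were the lowest of their genotypes and differed from each other by 0.0074 on the log2 scale. The log2 fold change was -0.078 (95% confidence interval -0.34 to 0.19, adjusted p = 0.796 from edgeR), and its sign turned to 0.0084 where libraries were scaled by their totals only. Permuting the libraries exactly gave p = 0.6 (two-sided). Per kilobase of exon, the level of *Uba1* in wild-type ESCs was 15.7 ± 0.781 times that of *Uba6*, and in S138A ESCs 19.1 ± 3.01 times (SD, n = 3 each). Single libraries were at 16.6, 15.2 and 15.4 against 15.6, 20.9 and 20.9, so S138A A fell among the wild-type libraries (exact permutation test, two-sided p = 0.2).

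The Y-linked copy *Uba1y* had 25.2, 25.03 and 23.0 CPM in the wild-type libraries and 34.4, 35.4 and 39.1 CPM in S138A A, B and C. All S138A libraries were above all wild-type libraries, and the mean was 48.6% higher. The log2 fold change was 0.57 (95% confidence interval 0.31 to 0.83, adjusted p = 0.187 from edgeR). The gene was called with the block (adjusted p = 0.011 from edgeR) and with DESeq2 (adjusted p = 0.000276). Per kilobase of exon its wild-type level was 6.04 ± 0.307 and its S138A level 8.97 ± 0.61 (SD, n = 3), near that of *Uba6* and far below *Uba1*. Exons of *Uba1y* overlap an annotated antisense gene over 285 bases. The strand setting of the counting is not stated, so reads of these genes cannot be told apart. The paper describes the E14 line as female, yet this Y-linked gene had 791 to 1449 counts per library. Where these reads came from was not tested.

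**Figure D3:**
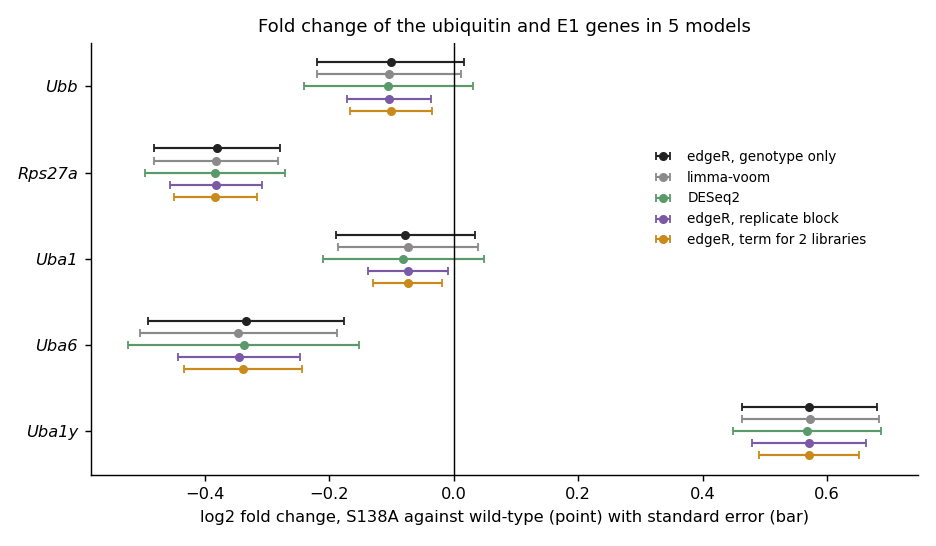
Log2 fold change of S138A against wild-type ESCs (point) and its standard error (bar) for the 4 genes and for *Uba1y* in 5 models. The points of *Rps27a*, *Uba6* and *Uba1y* hardly move between models (-0.38 for *Rps27a* in each) while the bars shorten with the block or with a term that sets the libraries wild-type 3 and S138A C apart.

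How far the count of each gene can be its own was measured on the annotated transcripts. Of all windows of 50 bases in the shortest full coding transcript, 100% of those of *Uba6* and 99.2% of those of *Uba1* were found once on that strand in all transcripts of GENCODE M21. The share was 31.0% for *Ubb* and 28.1% for *Rps27a*. For *Ubb*, 35.0% of windows were repeated within its own transcript, which follows from the units printed above, and 61.0% were shared with other genes, mainly *Gm1821*, a processed pseudogene with 13 to 32 counts per library. *Rps27a* shared 71.9% of windows with 14 genes. Counts of the 8 of these genes in the table summed to 1.56% to 2.24% of the count of *Rps27a*, the lowest and the highest over the 6 libraries. *Gm8430*, which shared the most windows with *Rps27a* (63.3%), was counted 425, 475 and 493 times in the wild-type libraries and 343, 521 and 422 times in S138A A, B and C, so its groups overlapped. *Rps27a-ps2*, a pseudogene that shared 62.6%, was counted 614, 313 and 572 times in the wild-type libraries and 223, 327 and 254 times in S138A A, B and C, against 40391 to 51205 and 34842 to 40351 for *Rps27a*. Whether reads that fit several places were counted is not stated, so the values of *Ubb* and *Rps27a* depend on that choice and those of *Uba1* and *Uba6* hardly do. *Rps27a* also overlaps *Clhc1*, on the other strand, over 160 bases of exon, and *Clhc1* had 11 to 23 counts. For *Uba1y* 56.4% of windows were shared with 8 genes, of which 0 were in the count table.

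**Figure D4:**
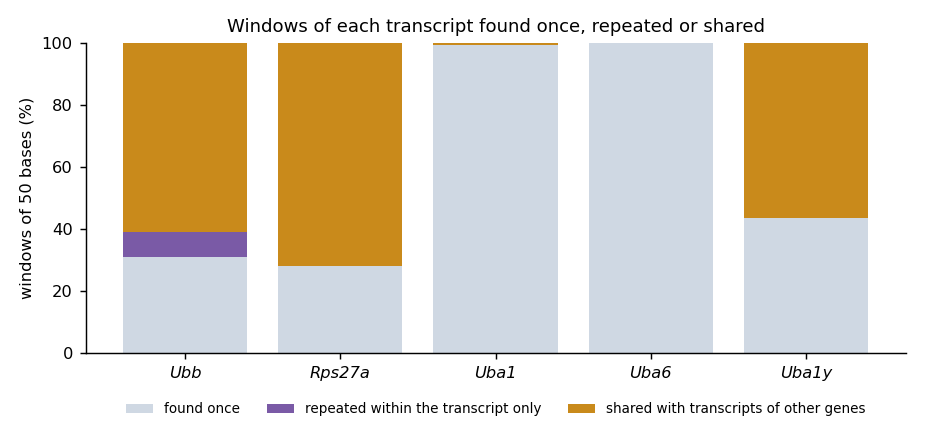
Share of 50-base windows (percent) of the shortest full coding transcript found once (grey), repeated within the transcript only (purple) or shared with transcripts of other genes (orange). *Uba1* and *Uba6* are almost wholly unique, while *Ubb* and *Rps27a* are unique over 31.0% and 28.1% of windows.

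The genes around the E1 step were described by lists. The planned test, edgeR on genotype only, called 0 genes in every list. For that reason each list was counted in the block, an alternative model, beside all genes tested (10.7% higher, 9.13% lower). The block uses final digits of column names that the labels do not tie to replicates. Passing in it is therefore given as a description only. The 4 genes had a median log2 fold change of -0.22, and 2 of 4 passed in the block. Among the E1 enzymes of ubiquitin-like proteins, 7 of 8 were tested, their median was -0.11 and 0 passed in the block. The lowest p there belonged to *Atg7*, the E1 of autophagy, at 0.49 (block adjusted p = 0.0517 from edgeR), to *Sae1* at -0.26 and to *Uba2* at -0.18, which together form the E1 of SUMO. *Uba7*, the E1 of ISG15, had 5 to 20 counts and was not tested.

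Of the ubiquitin-like proteins themselves, 15 of 16 were tested with a median of -0.06, and 4 passed in the block, all lower. Among them were *Sumo2* and *Sumo3*, whose products are joined to proteins by the SUMO pathway, and *Ufm1*. *Sumo2* had 561 ± 23.5 CPM in wild-type and 364 ± 31.6 CPM in S138A libraries (SD, n = 3). Its log2 fold change of -0.62 had a block adjusted p of 0.00436 from edgeR. *Gabarap* and *Isg15*, next by p, stood at -0.19 and -0.58 and did not pass. *Isg15* had only 9 to 17 counts per library, so its value lies near the floor. *Ubd*, which encodes FAT10, had 0 or 1 count in each library, so the second substrate of UBA6 was at the limit of detection. *Ube2z*, an E2 that UBA6 loads, had a log2 fold change of -0.32 and passed in the block (adjusted p = 0.0358 from edgeR). *Birc6*, an E2 and E3 hybrid enzyme that UBA6 also serves, stood at -0.15 and did not pass.

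Among 10 enzymes that release or recycle ubiquitin, 1 passed higher and 3 lower in the block, with a median of -0.21. *Uchl1*, a hydrolase that processes and holds free ubiquitin, was higher at 0.39, and *Uchl5*, which trims chains at the proteasome, was lower at -0.53. *Uchl3*, at -0.28, and *Usp14*, at -0.25, also passed. Of the E2 enzymes of ubiquitin, listed together with E2 variants such as *Ube2v2*, 27 of 28 genes were tested with a median of -0.061. In the block 1 passed higher and 5 lower. The lowest p values were those of *Ube2g1* at -0.60, *Ube2v2* at -0.41 and *Ube2k* at -0.31. Proteasome subunits, which degrade what ubiquitin marks, had 31 of 31 values below 0 (7621 of 16023 over all genes tested) and a median of -0.23, and 10 passed lower and 0 higher. The lowest p values in this list were those of *Psmb6* at -0.47, *Psmd11* at -0.38 and *Psma2* at -0.37, and the lowest log2 fold change was that of *Psmd12* at -0.52. Heat shock genes, listed because heat shock induces *Ubb*, had a median of -0.20 over 16 genes, with 10 values below 0 and 6 above. In the block 7 passed lower and 1 higher. *Hspa1a* at 0.60, *Hspa1b* at 0.49, *Hspb1* at 0.30 and *Bag3* at 0.17 were among those above 0 and did not pass. *Hsp90aa1* stood at -0.56 and *Hsp90ab1* at -0.36, both lower in the block, while of the heat shock factors *Hsf1* was higher at 0.29 and *Hsf2* lower at -0.29 in the same fit. *Ubb* itself, at -0.10, did not pass. *Psmd14* stands in both the list of enzymes and the proteasome list, and *Fau* in both the list of ubiquitin-like proteins and the ribosomal list.

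**Figure D5:**
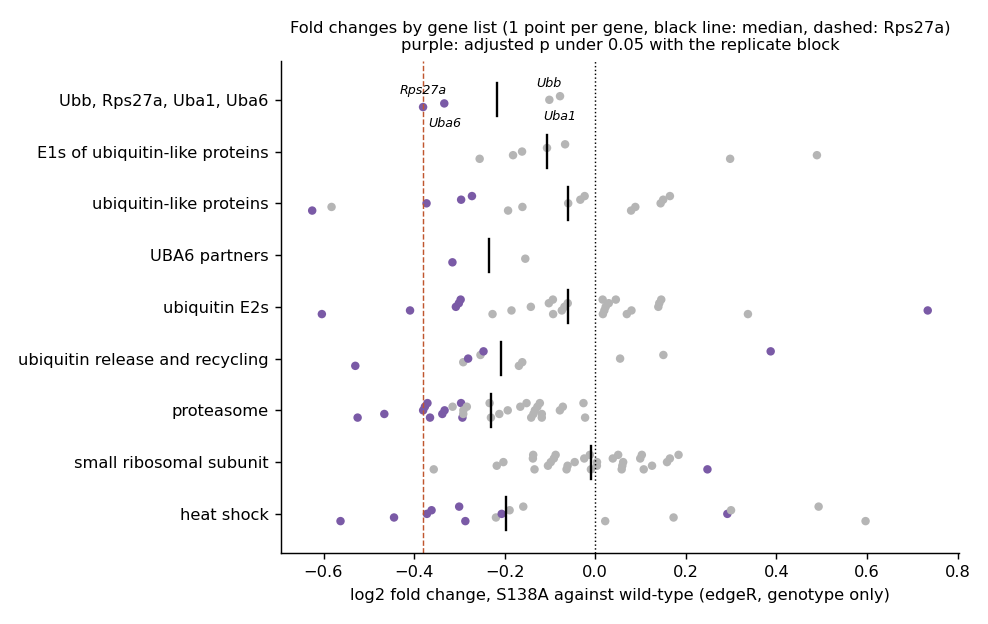
Log2 fold change of S138A against wild-type ESCs for every tested gene of each list (edgeR, genotype only). Points are genes, purple points have an adjusted p under 0.05 with the replicate block, black lines are list medians and the dashed line is *Rps27a* at -0.38. All 31 proteasome subunits lie left of 0, whereas the ribosomal genes lie around 0 and all to the right of *Rps27a*.

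Over the libraries the 4 genes all correlated positively with each other, to different degrees. As a description over 6 libraries of 2 genotypes, with 2 libraries that stood apart, the Pearson correlation of log2 CPM was highest for *Ubb* with *Uba6* (0.92) and lowest for *Rps27a* with *Uba1* (0.48). Among 9126 genes of at least 10 mean CPM, those most like *Ubb* were *Dnajc13*, *Fam32a* and *Kif5b*, at 0.984 to 0.994. *Gm4631*, *1110008L16Rik* and *Zfp846* were most like *Rps27a*, at 0.994 to 0.995. For *Uba1* they were *Idh3g*, *Fastkd3* and *Ddx11*, at 0.995 to 0.998, and for *Uba6* they were *Tnpo1*, *Fbxo30* and *Ttc27*, at 0.991 to 0.994. With only 6 points, many genes reach such values. When deviations from the genotype means were correlated instead, 0 of the first 3 genes were the same for *Ubb*, *Rps27a* and *Uba1*, and 1 for *Uba6*.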

How the data were processed

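RNA-seq of 3 wild-type and 3 S138A libraries was used. The submitters' processing notes name CASAVA 1.8.4 for base calls, TopHat2 2.0.11 with build mm9 (NCBIM37) for alignment and featureCounts for counting, and the table deposited by the authors holds unscaled counts of reads per gene. Its version, annotation, strand setting and treatment of reads with several matches are not given in the sources used here. RNA-seq is not described in the paper's text. The deposited counts, 33227593 to 37169770 per library, were analysed in R 4.3.3 (edgeR 4.0.16, limma 3.58.1, DESeq2 1.42.0) and Python 3.11.15. Genes were kept by filterByExpr (minimum count 10, minimum total count 15). Genotypes were compared in all 6 libraries by edgeR's quasi-likelihood test after TMM scaling, and p was adjusted (Benjamini-Hochberg) over all 16023 genes tested. The standard error was taken as the size of a log2 fold change over the square root of its F statistic. Symbols were found for 32897 genes (87.4%).

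The columns of the S138A libraries were assigned as a group, and 0 columns were left unused. For the block, their final digit was taken as the replicate number. Deviations from the genotype means of same-numbered libraries correlated at 0.53, 0.493 and 0.753, but wild-type 1 with S138A B gave 0.515 and wild-type 2 with S138A A gave 0.526, so the first 2 numbers cannot be told apart. Gene lengths, transcripts and coordinates are from GENCODE M21 (GRCm38), another build than that of the counts, and no sequence of strain 129 was used. The shared windows are of 50 bases because the read length is not stated. Log2 CPM for correlations had a prior count of 2.

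The 4 genes and the gene lists were chosen with earlier results of these data known. Named are the 4 genes, from each list the members with the lowest p in the genotype-only fit (up to 3, or all of a list of 3 or fewer), and for each of the 4 genes the 3 genes with the highest correlation. Listed genes named beyond that rule (*Sumo3*, *Ufm1*, *Usp14*, *Hsf2*, *Hspa1a*, *Hspa1b*, *Hspb1*, *Bag3*, *Psmd12*, *Ubd*, *Uba7*, *Psmd14*, *Fau*), and genes that share or overlap sequence, were chosen after their values were seen. Some genes that the rule names are not reported here. Alternatives were RLE and upper-quartile factors, library totals only, no low-count filter beyond 1 count, 1 CPM in 3 libraries as filter, DESeq2, limma-voom, each library left out, the replicate block, a model term that sets wild-type 3 and S138A C apart, removal of both, and other gene lengths.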

Additional observations from a re-analysis of the deposited data

How the results depend on the processing

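The number of genes called moved from 0 to 4 with no filter beyond 1 count, 797 with DESeq2, 3180 with the replicate block, 4418 with a model term that separates S138A C and wild-type 3 from the rest, and 4756 in the 4 other libraries, and ranged from 0 to 79 as single libraries were left out, 79 being without S138A C. The cause was not tested. *Rps27a* kept its direction in all 16 alternatives and passed in 4 of them, at -0.38 with DESeq2, the replicate block or the term, and at -0.32 in the 4 libraries, and ranged from -0.43 to -0.32 as libraries were left out (adjusted p 0.151 to 0.626 from edgeR). *Uba6* kept its direction in all 16 and passed in 2, at -0.35 with the replicate block and -0.34 with the term. It ranged from -0.50 to -0.22 with libraries left out. *Ubb* did not pass in any of the 16. It ranged from -0.20 to -0.041 with libraries left out and stood at -0.018 with library totals only. *Uba1* turned to 0.0084 with library totals only and ranged from -0.16 to -0.033 with libraries left out. *Uba1y* passed in 4, at 0.57 with DESeq2, the replicate block or the term and 0.47 in the 4 libraries. The pairing behind the block changed no call of *Ubb* or *Uba1*.

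Levels per kilobase in wild-type ESCs moved with the length. With the longest coding transcript they were 928 for *Ubb*, 1701 for *Rps27a*, 161 for *Uba1* and 10.7 for *Uba6*, and with the shortest full one 928, 2112, 163 and 10.7. With libraries left out, the log2 ratio between genotypes ranged from 0.20 to 0.41 for *Uba1* to *Uba6*. For *Ubb* to *Rps27a* it ranged from 0.21 to 0.35. Gene length cancels from these differences between genotypes, so the choice of length could not change them. At 1750 or more counts of *Uba6* per library, depth limited these 4 genes less than the spread between libraries did.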
